A study of Mus musculus with 24 samples.

Results

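The light phase was compared with the dark phase in brain endothelial cells of control mice. The comparison took the 12 control libraries of 24 in the series, and they were chosen by label alone: 6 from the light phase (ZT2, ZT6, ZT10) and 6 from the dark phase (ZT14, ZT18 and ZT22), with 2 mice at each time point. Zeitgeber time (ZT) counts hours from lights on in a cycle of 12 h light and 12 h dark. Each library came from the CD31+ cells of 1 mouse, isolated by sorting from brain and read by stranded total RNA sequencing. Controls were C57BL/6J mice with both Bmal1 alleles floxed (Bmal1fl/fl) and no Cre. The other 12 libraries, used here for comparison, came from Bmal1fl/fl; Tie2cre mutants at the same times. The floxed allele is thus shared by both groups, and Tie2-driven Cre is known to act in blood-forming cells as well as in endothelium. The ages of these mice were not given in the sources used here.

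Mice are active in the dark, so this contrast sets the resting phase against the active phase. Brain endothelial cells form the blood-brain barrier, and they carry a clock in which BMAL1 and CLOCK drive E-box genes such as Per, Cry and Nr1d1, whose proteins then repress that drive. Daily swings in body temperature, feeding and hormones can also reach these cells without the clock, and heat shock chaperones and cold-inducible RNA-binding proteins are known to follow temperature.

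The control libraries held 6144892 to 6648311 reads, assigned to genes and normalized by the authors. Endothelial markers (Pecam1, Cdh5, Cldn5 and 8 others) summed to 69367 to 112298 reads in light libraries and 71886 to 109165 in dark libraries, so the labelled cell type was present in all. Other cells were present too: the ZT6 and ZT18 libraries held 1198 to 1965 reads of microglial markers against 10807 to 24675 in the rest, ZT10 replicate 1 held 2356 reads of blood leukocyte markers against 40 to 553 in the other light libraries, and ZT22 replicate 2 held 66863 reads of choroid plexus markers against 3245 to 12917 in the other dark libraries. In the labels the ZT6 and ZT18 libraries carry 1 run of consecutive numbers, and this run against the rest, called the number series here, was a term of the model. The numbers of the rest follow on from that run, apart from those of control ZT2 replicate 1 and both mutant ZT14 libraries, which lie far from it and were kept with the rest. All 6 light libraries carried the same i5 index. In the dark, ZT18 shared it and ZT14 and ZT22 carried another, so that outside ZT6 and ZT18 index and phase cannot be told apart in controls. A fit with the index as a further term therefore takes its phase values from ZT6 and ZT18 alone. Such a fit repeats that contrast, with the spread taken over all 12 libraries, and is no separate check on the index. In mutants every library outside ZT6 and ZT18 carried that other index, so the difference between genotypes is also one of index at ZT2 and ZT10. Reads of Xist and of Y-linked genes marked 3 females and 3 males in the light and 4 females and 2 males in the dark. Replicate 1 was female at 6 of 6 control time points and replicate 2 male at 5 of 6, so that replicate number and sex nearly coincide. Arntl (Bmal1) had 1 to 468 reads in controls and 81 to 354 in mutants, counted over the whole gene and not over the deleted part, so these reads do not check the labels. In bulk RNA, fewer cells of a type and less RNA per cell cannot be told apart.

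**Figure D1:**
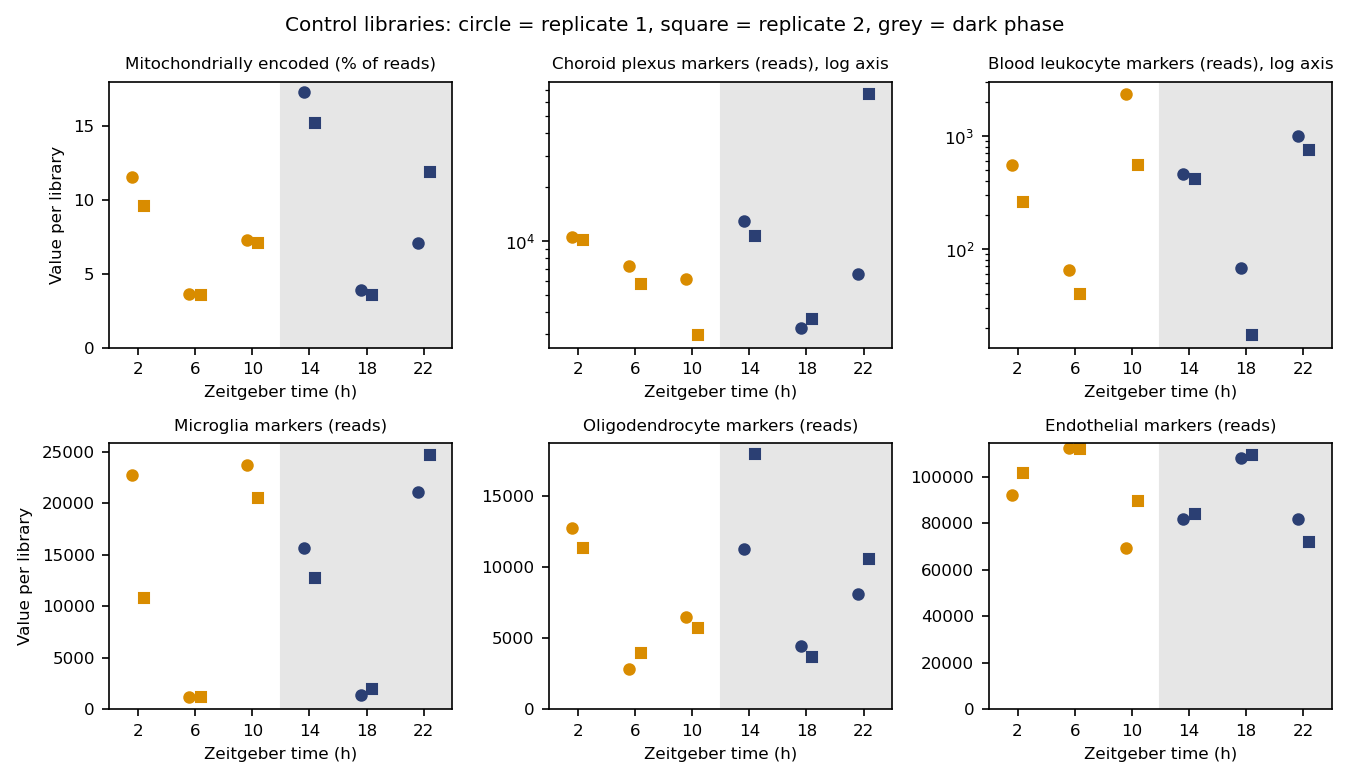
Mitochondrially encoded reads (percent of a library) and summed reads of marker genes (2 panels on a log axis) against zeitgeber time in the 12 control libraries, orange for light and blue for dark. ZT10 replicate 1 stands apart for leukocyte markers at 2356 reads and ZT22 replicate 2 for choroid plexus markers at 66863, and microglial markers are low at ZT6 and ZT18.

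A single gene passed the main test between the phases. Of 15493 genes tested with edgeR's quasi-likelihood test, 1 passed a Benjamini-Hochberg adjusted p of 0.05 (0.00645%): Slc5a3, the sodium/myo-inositol cotransporter, which imports an organic osmolyte, was 2.19-fold higher in the dark. No gene passed in the light direction (0%). At an unadjusted p under 0.05 there were 693 genes (4.47%), 320 higher in the light (2.07%) and 373 higher in the dark (2.41%). DESeq2 called 7 genes, all higher in the dark and Slc5a3 among them. The median log2 fold change of light over dark, on which negative values are higher in the dark, was -0.01 over all genes. Scaling by library totals alone moved the unadjusted split to 563 higher in the light and 209 higher in the dark.

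Promoter sequences are shown first for the gene that passed and for chaperone and clock genes whose windows carry the elements of their known regulators. The windows run from 200 bases before to 30 bases after the start, on the gene's own strand, from RefSeq (GRCm38.p6). Capitals mark a heat shock element of 2 units (GAANNTTC or TTCNNGAA, with runs that join into longer elements) in Hspa1a, Hsph1 and Chordc1, and the E-box CACGTG in Ciart and Tef. The Hsph1 window also holds 1 CACGTG, left in lower case. The Slc5a3 window is at chr16:92058122-92058351 (+), Hspa1a at chr17:34972127-34972356 (-), Hsph1 at chr5:149636286-149636515 (-), Chordc1 at chr9:18292067-18292296 (+), Ciart at chr3:95882199-95882428 (-) and Tef at chr15:81802473-81802702 (+).
Slc5a3: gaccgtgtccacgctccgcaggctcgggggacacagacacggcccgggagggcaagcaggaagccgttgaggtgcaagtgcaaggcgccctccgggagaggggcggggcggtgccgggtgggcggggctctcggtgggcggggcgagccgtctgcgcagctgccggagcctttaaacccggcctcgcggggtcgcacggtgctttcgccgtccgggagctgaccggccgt
Hspa1a: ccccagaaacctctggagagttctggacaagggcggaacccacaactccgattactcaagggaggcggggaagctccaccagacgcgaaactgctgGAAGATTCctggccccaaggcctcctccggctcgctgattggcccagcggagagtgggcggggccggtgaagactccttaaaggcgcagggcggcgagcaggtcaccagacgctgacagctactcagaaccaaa
Hsph1: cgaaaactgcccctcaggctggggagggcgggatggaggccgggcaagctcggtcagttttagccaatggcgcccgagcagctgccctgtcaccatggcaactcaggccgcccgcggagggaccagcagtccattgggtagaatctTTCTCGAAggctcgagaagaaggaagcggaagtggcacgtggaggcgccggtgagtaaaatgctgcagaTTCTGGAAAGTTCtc
Chordc1: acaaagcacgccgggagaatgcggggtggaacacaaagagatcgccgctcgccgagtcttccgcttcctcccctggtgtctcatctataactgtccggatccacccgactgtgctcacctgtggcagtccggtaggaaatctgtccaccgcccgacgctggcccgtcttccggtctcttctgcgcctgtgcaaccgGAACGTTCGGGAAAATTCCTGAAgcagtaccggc
Ciart: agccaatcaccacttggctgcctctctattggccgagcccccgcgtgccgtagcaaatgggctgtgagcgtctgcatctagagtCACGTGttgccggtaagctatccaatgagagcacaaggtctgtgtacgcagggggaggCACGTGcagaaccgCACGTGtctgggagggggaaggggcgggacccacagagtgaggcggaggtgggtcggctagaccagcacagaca
Tef: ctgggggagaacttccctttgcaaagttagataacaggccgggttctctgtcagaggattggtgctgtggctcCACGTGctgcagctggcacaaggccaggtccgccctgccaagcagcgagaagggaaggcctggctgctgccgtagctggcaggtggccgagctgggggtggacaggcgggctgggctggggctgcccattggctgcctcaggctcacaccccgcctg

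Letters of these elements were counted on both strands in all windows of 300 bases. The 2-unit element was in 11 of 21 windows of heat shock chaperones, which stood for 15 of the 18 genes, and in 15.1% of all 32851 windows. The 3-unit element, which is the 2-unit one with NNGAA or NNTTC added to its end, was in 5 of those 21 windows and in 0.603% of all. CACGTG was in 6 of 23 windows of clock and clock output genes, in 3 of the 21 windows of chaperones and in 7.15% of all. These are matches of letters and not sites of binding. The shown Slc5a3 window held none of them.

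Slc5a3 lies at chr16:92058322-92087473 on the plus strand (GRCm38). In the light its normalized read counts were 223 and 238 (ZT2), 349 and 203 (ZT6), 212 and 202 (ZT10). In the dark they were 436 and 547 (ZT14), 487 and 393 (ZT18), 523 and 619 (ZT22). Every dark library was above every light library, and the highest light value was that of ZT6 replicate 1. The log2 fold change was -1.13 ± 0.17 (SE) with an edgeR adjusted p of 0.0347. In mutants the 6 light libraries spanned 268 to 476 (median 389) and the 6 dark libraries 296 to 553 (median 399.5), which overlap, with a log2 fold change of -0.10 ± 0.17 and an unadjusted p of 0.56. The difference between the genotypes, 1.03 on the log2 scale, had an unadjusted p of 0.0002 and did not pass adjustment in edgeR (adjusted p = 0.74). Slc5a3 was picked by its p in these same controls, so its genotype difference is not independent of that choice. At ZT2 and ZT10 the genotypes also differ in index.

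The Slc5a3 call had little room. Its adjusted p ranged from 5.84e-07 to 1 over 27 alternatives and passed in 10 of them. It was 0.0545 with replicate number as a term and 0.0596 with sex as one. It was 0.0775 without the number series, 0.0885 with library totals only and 1 with the index as a term. With 1 library left out it ranged from 0.00153 to 0.187 in edgeR, and passed without ZT6 replicate 1 (0.00153), ZT18 replicate 2 (0.0177) or ZT22 replicate 2 (0.034) and in no other case. Without ZT2 replicate 1 it was 0.187, without ZT2 replicate 2 0.142, without ZT6 replicate 2 0.137, without ZT10 replicate 1 0.157, without ZT10 replicate 2 0.104, without ZT14 replicate 1 0.0777, without ZT14 replicate 2 0.0795, without ZT18 replicate 1 0.158 and without ZT22 replicate 1 0.1. The fold change kept its sign under these 27 alternatives, from -1.33 to -0.68. Within ZT6 and ZT18, which share an index, it was -0.69 (unadjusted p = 0.0182, adjusted p = 0.98), and within the other 4 time points -1.33 (adjusted p = 0.0349). The fit with the index as a term takes its phase value from ZT6 and ZT18 too, and gave -0.68. Slc5a3 overlaps Mrps6, a mitochondrial ribosomal protein gene on the same strand, so reads in the shared part cannot be assigned with certainty. Mrps6 had 54 to 116 reads in the light (median 70) and 37 to 160 in the dark (median 49.5), and its log2 fold change was 0.05 ± 0.38.

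The next genes in the dark direction did not pass in edgeR, and 3 of the 4 were heat shock chaperones. Hsp90aa1, the inducible cytosolic HSP90, spanned 2283 to 3990 reads in the light (median 3235) and 4396 to 6167 in the dark (median 5551.5). The groups did not overlap, as was so for 15 of all genes tested in this direction (0.0968%), and the log2 fold change was -0.81 ± 0.15 (adjusted p = 0.16). Hspa1a, an inducible HSP70, spanned 355 to 853 (median 450) in the light and 334 to 2373 (median 1145) in the dark. Its groups overlapped through ZT22 replicate 2, the lowest of all 12 at 334, and its log2 fold change was -1.31 ± 0.24 (adjusted p = 0.16). Without ZT22 replicate 2 that value was -1.5 with an adjusted p of 0.000132, and over 27 alternatives it ran from -1.69 to -1.1 with adjusted p from 2.95e-15 to 1. Hspa1b, the near-identical neighbour of Hspa1a with which it may exchange reads, gave -1.42 ± 0.31 (adjusted p = 0.424). Hsph1, an HSP110 that exchanges nucleotide on HSP70, spanned 300 to 493 (median 411.5) in the light and 451 to 1408 (median 840.5) in the dark, at -1.13 ± 0.23 (adjusted p = 0.296).

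Gprasp1, which sorts G protein-coupled receptors after internalization, completed the 5 genes with the smallest p in this direction. It spanned 268 to 394 reads in the light (median 374) and 487 to 619 in the dark (median 527.5) with no overlap, at -0.70 ± 0.14 (adjusted p = 0.296). In mutants its value was of the other sign, 0.18 ± 0.12. The genotype difference of 0.88 had an unadjusted p of 1.51e-05, and an edgeR adjusted p of 0.234. Gprasp1 too was picked by its p in these controls, and the limits given for Slc5a3 hold here as well. DESeq2 called Gprasp1 for that difference, and also between the phases in controls (adjusted p = 0.0125). With all 24 libraries in the edgeR fit the phase difference in controls passed as well (adjusted p = 0.0223). It passed in 3 of 27 alternatives, with adjusted p from 0.0125 to 1. With the index as a term the phase value was -0.53 (edgeR unadjusted p = 0.0504).

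None of the 5 genes with the smallest p in the light direction passed either. Ptgfrn, a partner of tetraspanins that binds the prostaglandin F2 receptor, spanned 608 to 851 reads in the light (median 733) and 316 to 632 in the dark (median 445.5). The 2 ZT18 libraries, at 614 and 632, reached into the light range, and the log2 fold change was 0.63 ± 0.14 (adjusted p = 0.424). Slc38a5, a glutamine and serine transporter, spanned 244 to 537 (median 461) against 136 to 420 (median 217.5), at 0.77 ± 0.19 (adjusted p = 0.764). Its value was 0.27 within ZT6 and ZT18 and 1.04 within the other time points. Fpgs, which adds glutamates to folate, spanned 54 to 113 (median 70.5) against 18 to 46 (median 24.5), with no overlap, as for 26 of all genes in this direction (0.168%), at 1.43 ± 0.37 (adjusted p = 0.764). Ncaph, a condensin subunit, gave 1.04 ± 0.26, and Bnip1, a SNARE protein of the endoplasmic reticulum, 1.49 ± 0.37 (both adjusted p = 0.764). All 5 had values between 0.15 and 0.26 in mutants. These genes were likewise picked by their p in controls, which favours smaller values in mutants.

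**Figure D2:**
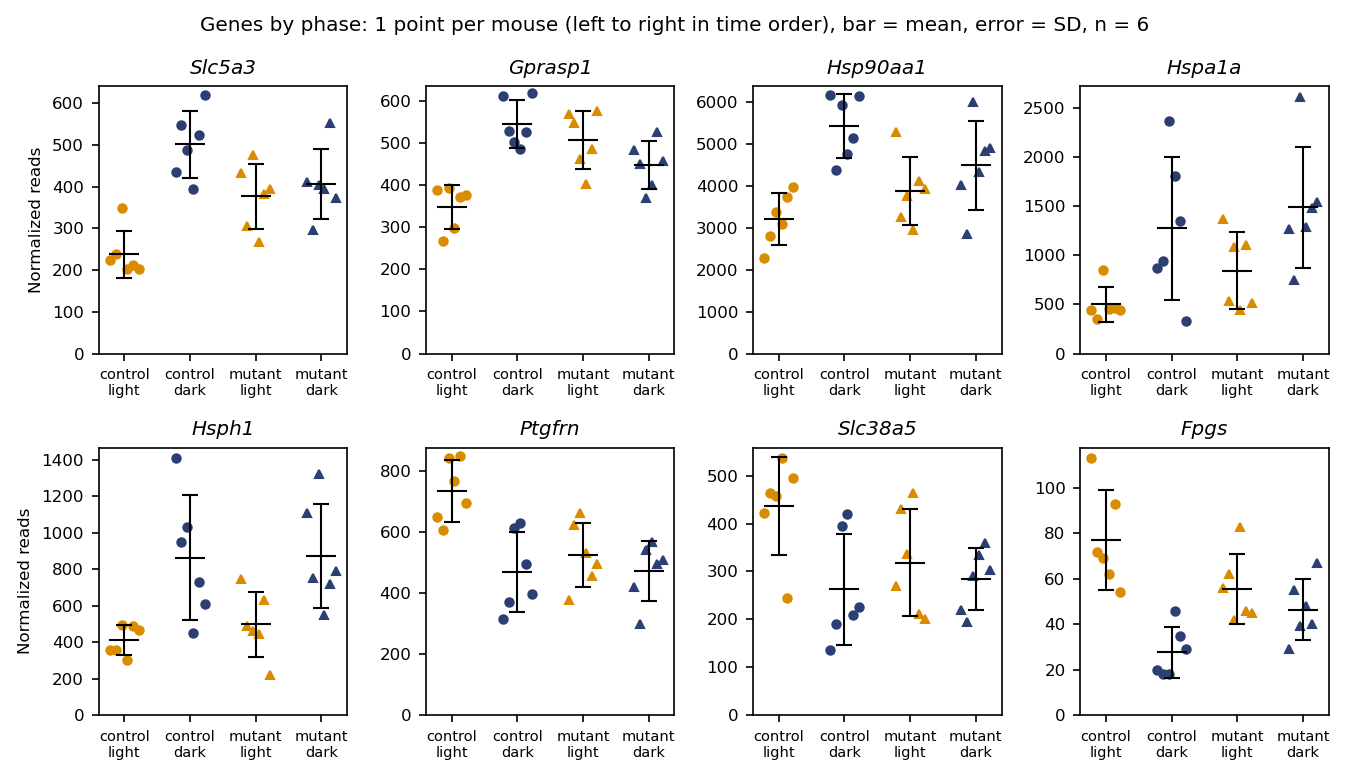
Normalized reads of 8 genes by genotype and phase, orange for light, blue for dark, circles for control and triangles for mutant mice, with mean and SD (n = 6 a group). Slc5a3, Gprasp1, Hsp90aa1 and Fpgs do not overlap between the phases in controls and do in mutants. Of the 8, Slc5a3 is the one that passed the test.

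The clock genes showed how the contrast of phases reads a rhythm. A gene that peaks in the middle of a phase may differ between phases. One that peaks near lights on or off may have high and low libraries in both. Of 12 core clock genes and 10 clock output genes, none passed in edgeR and none in DESeq2, while 4 had an unadjusted p under 0.05: Nr1d1, Dbp and Bhlhe41 higher in the light (2.07% of all genes) and Cry1 higher in the dark (2.41% of all genes). The median log2 fold change was -0.15 for core clock genes and 0.17 for outputs. With 1 library left out the core clock median ran from -0.17 to -0.08 (without ZT14 replicate 2). The output median ran from 0.07 (without ZT10 replicate 2 or ZT18 replicate 2) to 0.32 (without ZT14 replicate 2), with 0.11 without ZT6 replicate 1 or ZT22 replicate 1, 0.09 without ZT22 replicate 2 and 0.27 without ZT14 replicate 1. Without both ZT14 libraries the medians were -0.02 and 0.55, and with the index as a term 0.03 and 0.40. The count at an unadjusted p under 0.05 also moved. Without ZT14 replicate 2 it was 3 in the light and 2 in the dark for core clock genes. It was 4 in the light for outputs. Without ZT2 replicate 1 these counts were 2, 2 and 4. The core clock count in the light was also 2 without ZT14 replicate 1, and that in the dark was 0 without ZT6 replicate 1 or ZT18 replicate 2. For outputs the light count was 4 without ZT2 replicate 2. It was 1 without ZT10 replicate 1, ZT10 replicate 2 or ZT18 replicate 1.

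Nr1d1, which encodes the repressor REV-ERBα, had 322 and 281 reads (ZT2), 1765 and 990 (ZT6), 497 and 433 (ZT10) in the light. In the dark it had 118 and 330 (ZT14), 43 and 282 (ZT18), 38 and 24 (ZT22). The phases overlapped through ZT14 replicate 2 and ZT18 replicate 2, and the log2 fold change of 2.02 ± 0.52 did not pass (adjusted p = 0.764). Leaving out ZT14 replicate 2 gave 2.79 with an adjusted p of 0.0419, and 5 of 27 alternatives passed, with adjusted p from 7.97e-25 to 1. Nr1d2, its paralogue REV-ERBβ, had 281 and 346 reads (ZT2), 1252 and 1199 (ZT6), 883 and 1067 (ZT10), and still 872 and 910 at ZT14, and its phase value was 0.81 ± 0.49. Dbp, a PAR bZIP activator, had 71 and 38 reads at ZT2, its lowest time point by mean, and 1197 and 861 at ZT6, with a phase value of 1.69 ± 0.64 (unadjusted p = 0.0165). Between ZT6 and ZT18 alone the values were 3.08 for Nr1d1, 2.02 for Nr1d2, 3.17 for Dbp and 1.5 for its relative Tef, with adjusted p in edgeR of 0.00199, 1.14e-05, 7.5e-06 and 0.000913. Over 27 alternatives the adjusted p of each of these reached 1. In the main comparison of whole phases none of the 4 passed. Without the filter on low reads all 4 did, with adjusted p from 7.97e-25 to 0.000638.

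Arntl and Per2, whose highest reads lay near the borders of the phases, gave values smaller than their SE. The values of other core clock genes are given after them. Arntl had 439 and 466 reads at ZT2 and 468 and 234 at ZT22, with 1 to 22 at ZT10 and 13 to 15 at ZT14, and its phase value was -0.35 ± 0.85. Per2, a repressor of CLOCK and BMAL1, ran from 36 and 22 at ZT2 to 822 and 1169 at ZT14, at -0.48 ± 0.68. Per1 gave 0.09 ± 0.33, Per3 0.48 ± 0.47 and Cry2 -0.20 ± 0.21. Cry1, the later cryptochrome, spanned 116 to 348 reads in the light and 236 to 501 in the dark, at -0.71 ± 0.27 (unadjusted p = 0.0151). Npas2, a partner of BMAL1, had 3 and 305 reads in the 2 ZT18 libraries, and its value was -1.64 ± 0.96. Clock gave -0.10 ± 0.12 and Rora -0.10 ± 0.15.

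Among the outputs, Bhlhe41, an E-box repressor, spanned 31 to 270 reads in the light and 22 to 131 in the dark, at 0.90 ± 0.31 (unadjusted p = 0.00893). Ciart, which also represses CLOCK and BMAL1 and whose window holds 3 E-boxes, gave 1.09 ± 0.56, and Tef gave 0.77 ± 0.42. Nfil3, a bZIP repressor, gave -0.75 ± 0.65. Nampt gave 0.20 ± 0.16, Hlf 0.14 ± 0.29, Bhlhe40 -0.06 ± 0.20, Wee1 -0.24 ± 0.41 and Usp2 -0.34 ± 0.27. The sign of Arntl, Per1, Per2, Clock, Rora, Nfil3, Hlf, Bhlhe40 and Wee1 was the other one under at least 1 alternative. With the 6 time points as a factor, in place of the number series, differences among the times of a phase no longer counted as error, and 7 genes passed between the phases (0.0452%): Nr1d1, Nr1d2 and Dbp in the light and Slc5a3, Hsp90aa1, Hspa1a and Hsph1 in the dark.

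**Figure D3:**
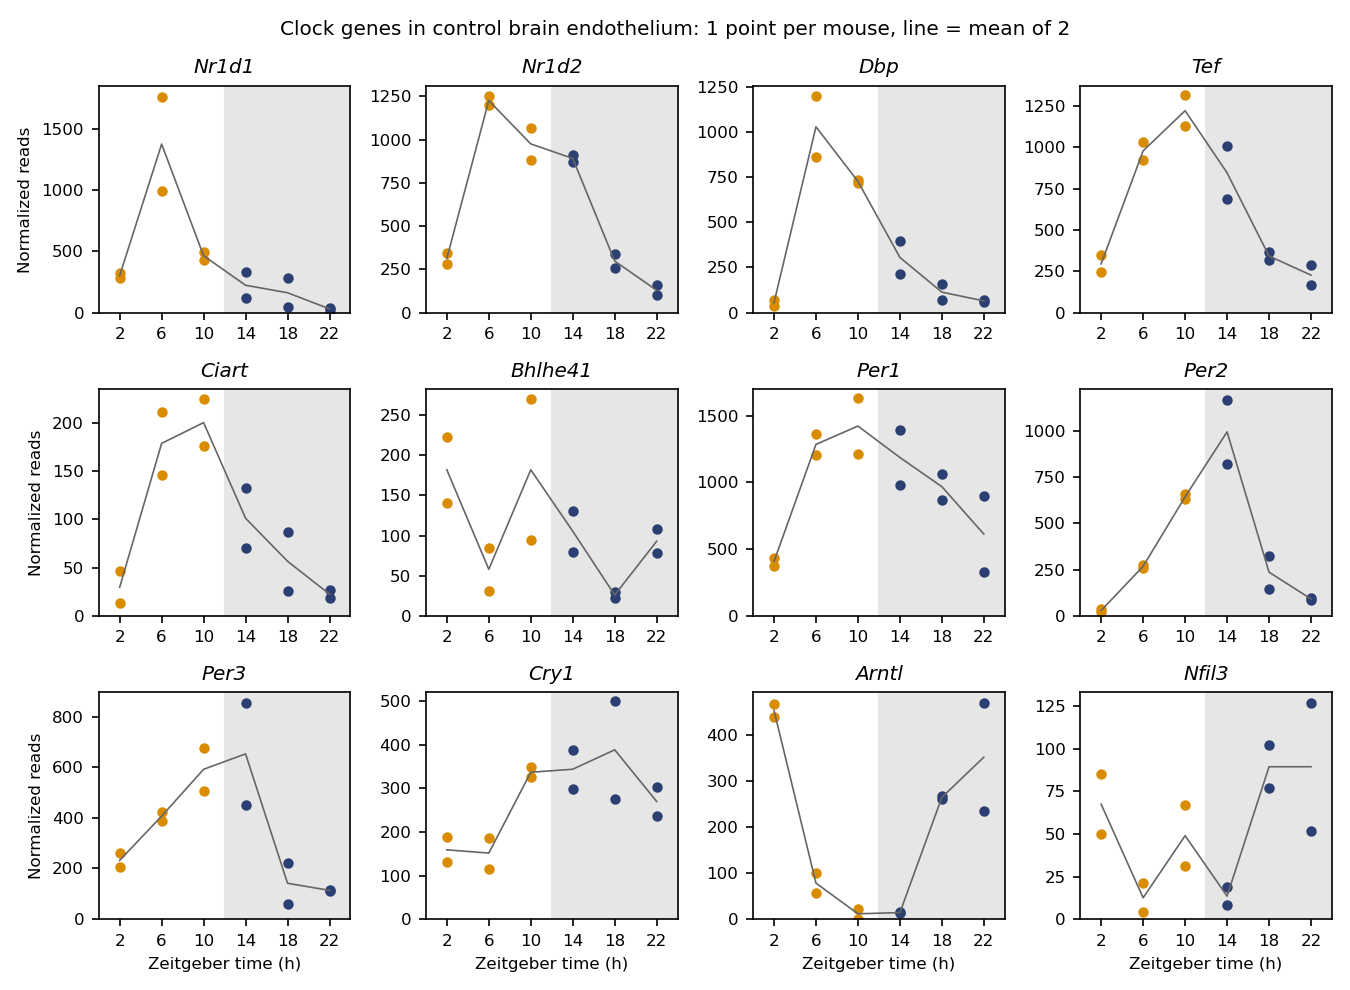
Normalized reads of 12 clock genes against zeitgeber time in controls, with 1 point a mouse, orange for light and blue for dark, and a line through the mean of 2 mice. Nr1d1 and Dbp peak at ZT6, Per2 at ZT14, and Arntl is highest at ZT2 and lowest at ZT10 and ZT14.

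In mutants the clock genes had phase values of the same sign for several members: 1.65 ± 0.53 for Nr1d1, 1.06 ± 0.41 for Dbp and 0.88 ± 0.44 for Nr1d2. Other outputs on the light side in controls had values near 0 in mutants: 0.09 ± 0.40 for Ciart, 0.07 ± 0.30 for Bhlhe41 and 0.00 ± 0.24 for Tef. None of the 22 had an unadjusted p under 0.05 for the difference between genotypes in this contrast, beside 5.13% of all genes.

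Heat shock chaperones lay on the dark side. These proteins fold or refold other proteins, and their inducible members answer to HSF1. All 18 were tested, 17 had values below 0 (dark higher) against 51.3% of all genes, and the median was -0.50. In the dark direction 13 of 18 had an unadjusted p under 0.05, beside 2.41% of all genes, and none passed adjustment in edgeR, while DESeq2 called Hsp90aa1, Hspa1a and Hsph1. Their reads summed to 25564 to 34449 in light libraries and 33442 to 53634 in dark libraries.

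The members have several roles, and no test compared the values between roles. Co-chaperones included Dnaja1, an HSP40 that hands clients to HSP70, at -0.77 ± 0.19, Dnajb1, of the same family, at -0.58 ± 0.17, Chordc1, an HSP90 partner, at -0.80 ± 0.23, and Stip1, which links HSP70 with HSP90, at -0.43 ± 0.20. Ahsa1, which activates the ATPase of HSP90, gave -0.44 ± 0.16. Dnajb4 and Bag3 gave -0.31 ± 0.22 and -0.26 ± 0.16. Of the constitutive members, Hspa8 spanned 6489 to 10394 reads in the light (median 7872) and 7756 to 14926 in the dark (median 10776), at -0.57 ± 0.16, and Hsp90ab1 gave -0.36 ± 0.12. The mitochondrial pair gave -0.29 ± 0.21 for Hspd1 and 0.15 ± 0.33 for Hspe1, the single member above 0. Hspb1, a small heat shock protein, gave -0.39 ± 0.19. Here and in the lists that follow, members past the 4 with the smallest p were chosen for the text after their values were seen.

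The dark mean of reads exceeded the light mean 12 h earlier for 18 of 18 chaperones between ZT2 and ZT14, for 17 between ZT6 and ZT18, and for 11 between ZT10 and ZT22. ZT10 and ZT22 thus differed least by count. Within ZT6 and ZT18 the median was -0.60 with 11 members at an unadjusted p under 0.05, and within the other time points -0.53 with 10. With the index as a term, where the phase values again come from ZT6 and ZT18, that count was 6. Without the ZT14 libraries it was 8. The medians were -0.60 and -0.39. In mutants 17 of 18 were below 0 (49.4% of all genes) with a median of -0.34, and 9 had an unadjusted p under 0.05 in that direction (2.81% of all genes). Hspb1 had a larger value there (-0.83 ± 0.17) and Hsp90aa1 a smaller one (-0.20 ± 0.16). Of the 18, Hsp90aa1 was the 1 member with an unadjusted p under 0.05 for the genotype difference, beside 5.13% of all genes. This count is near that share. The difference for Hsp90aa1 was 0.61 (edgeR unadjusted p = 0.0132, adjusted p = 0.9).

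**Figure D4:**
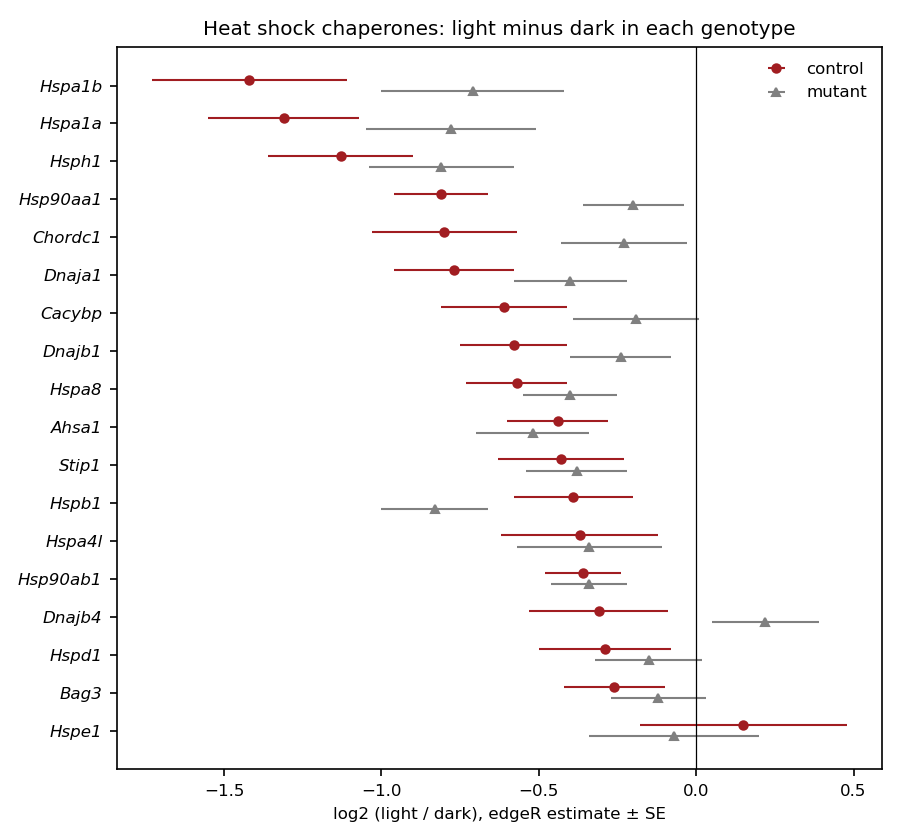
Estimated log2 ratio of light to dark with SE for 18 heat shock chaperones, circles for control and triangles for mutant mice. In controls 17 of 18 lie left of 0, and the inducible Hspa1b, Hspa1a and Hsph1 lie farthest left.

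Cold-inducible RNA-binding proteins, a list of 3, were above 0 in all 3 (48.7% of all genes), with 1 at an unadjusted p under 0.05 in the light direction (2.07% of all genes). Rbm3 spanned 441 to 703 reads in the light (median 539.5) and 244 to 526 in the dark (median 359.5), at 0.48 ± 0.18 (unadjusted p = 0.0166). Cirbp spanned 41 to 165 (median 119) and 20 to 100 (median 63), at 0.73 ± 0.35 (unadjusted p = 0.0501). Both sets of groups overlapped, and neither gene passed adjustment (0.998 for both). Srsf5, a splicing factor of the same list, gave 0.06 ± 0.12, and its sign changed under 2 alternatives. Leaving out ZT6 replicate 2 left no member at an unadjusted p under 0.05, as did the index as a term, and leaving out ZT10 replicate 1 or ZT22 replicate 1 gave 2. In mutants Rbm3 gave 0.20 ± 0.14 and Cirbp 0.50 ± 0.38, and Srsf5 gave 0.26 ± 0.12 (unadjusted p = 0.0366).

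Chaperones of the endoplasmic reticulum were closer to all genes. Of 19 tested, 13 were below 0 (51.3% of all genes) with a median of -0.05, but with library totals alone 7 were below 0 and the median was 0.03. Hspa5 (BiP), the main HSP70 of this organelle, spanned 2202 to 2806 reads in the light and 2514 to 3749 in the dark, at -0.41 ± 0.12 (unadjusted p = 0.00243, adjusted p = 0.886). Manf gave -0.36 ± 0.15 and Hsp90b1 -0.26 ± 0.12, and these 3 were the members with an unadjusted p under 0.05 (2.41% of all genes in the dark direction), with 0 past adjustment in edgeR and in DESeq2. Leaving out ZT2 replicate 1 left 1 member with such a p, and the index as a term left 0. Without ZT10 replicate 1 and ZT22 replicate 2 together, 8 of 19 were below 0 and the median was 0.02.

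Mitochondrially encoded genes were below 0 as a whole list. They code for subunits of the respiratory chain and for ribosomal and transfer RNAs. Of 37 listed genes 15 passed the filter on low reads, all 15 were below 0 (51.3% of all genes) with a median of -0.59, and 11 had an unadjusted p under 0.05 in the dark direction (2.41% of all genes), with 0 past adjustment in edgeR and in DESeq2. mt-Nd2 (complex I) had 19383 and 16629 reads (ZT2), 7684 and 6982 (ZT6), 15519 and 14215 (ZT10) in the light. In the dark it had 53308 and 28685 (ZT14), 9039 and 9487 (ZT18), 14735 and 28365 (ZT22). Its highest library was ZT14 replicate 1, and the phases overlapped. Its log2 fold change was -0.80 ± 0.22 (adjusted p = 0.886), that of mt-Cytb (complex III) -0.76 ± 0.24 and that of mt-Nd4 -0.67 ± 0.19.

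The share of all reads from these genes was 17.4% and 15.3% at ZT14, against 3.54% to 11.6% in light libraries and 3.60% to 11.9% in the other dark libraries. ZT14 also had the lowest normalization factors, 0.873 and 0.896 against 0.994 to 1.04 elsewhere. Without the ZT14 libraries the median was -0.23 and 2 of 15 had an unadjusted p under 0.05. With the index as a term these were -0.15 and 0, and without the number series -0.68 and 2. Within ZT6 and ZT18 the median was -0.16 and 4 had an unadjusted p under 0.05. Leaving out ZT14 replicate 1 left 6 with a median of -0.36, and leaving out ZT10 replicate 1, ZT10 replicate 2 or ZT14 replicate 2 left 7. In mutants 14 of 15 were above 0 (50.6% of all genes) with a median of 0.32, and 5 had an unadjusted p under 0.05 in the light direction (2.6% of all genes). Of these genes 12 had an unadjusted p under 0.05 for the genotype difference, beside 5.13% of all genes, with none past adjustment in edgeR. Markers of several other cell types also lay on the dark side, as did 51.3% of all genes. Oligodendrocyte markers had 6 of 7 below 0 (median -0.40), with summed reads of 2805 to 12791 in the light and 3699 to 18000 in the dark. Red blood cell markers had 5 of 5 below 0 (median -0.49), at 2244 to 5131 and 2431 to 9014 reads. Astrocyte markers had 6 of 7 below 0 (median -0.20), at 5503 to 16574 and 4899 to 18650 reads, with the water channel gene Aqp4 at -0.45 ± 0.17 (unadjusted p = 0.0158). Choroid plexus markers had 3 of 4 below 0 (median -0.86), with summed reads of 2961 to 10567 in the light. In the dark ZT22 replicate 2 held 66863 of these reads and the other libraries 3245 to 12917. In mutants astrocyte markers had 6 of 7 above 0 (median 0.21) and microglial markers 6 of 9 (median 0.20). Neuronal markers had 4 of 7 above 0 there (median 0.31) and oligodendrocyte markers 3 of 7 (median -0.13). Red blood cell markers had 1 of 5 above 0 in mutants (median -0.26) and choroid plexus markers 0 of 4 (median -0.54). The part of these cells in the values of the mitochondrially encoded genes and of the heat shock chaperones was not tested. Nuclear-encoded respiratory chain genes had a median of -0.07 over 79 tested, with 1 at an unadjusted p under 0.05 in the dark direction, a share below the 2.41% of all genes.

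Basement membrane genes lay on the light side. These encode the matrix sheet that endothelium and pericytes share. All 14 were above 0, against 48.7% of all genes, with a median of 0.16, and 4 had an unadjusted p under 0.05, beside 2.07% of all genes, with 0 past adjustment in edgeR or DESeq2. Hspg2 (perlecan) spanned 5841 to 9093 reads in the light (median 7794.5) and 3608 to 7209 in the dark (median 5664.5), at 0.43 ± 0.15 (adjusted p = 0.998). Col4a2, a collagen IV chain, gave 0.38 ± 0.16, Agrn (agrin) 0.30 ± 0.13 and Nid1 (nidogen) 0.28 ± 0.13. The laminin chains gave 0.13 ± 0.12 for Lama4, 0.12 ± 0.11 for Lamc1 and 0.01 ± 0.26 for Lamb1. The number of members at an unadjusted p under 0.05 was 1 without ZT2 replicate 1, ZT2 replicate 2 or ZT14 replicate 1, was 2 without ZT6 replicate 1, ZT14 replicate 2 or ZT22 replicate 2, and was 0 with the index as a term. In mutants 5 of 14 were above 0 (median -0.09).

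Receptors and ligands of the VEGF, Tie and apelin pathways, which steer vessel growth and stability, were above 0 in 13 of 14 (48.7% of all genes; median 0.21), with 2 at an unadjusted p under 0.05 in the light direction (2.07% of all genes). Flt4 (VEGFR3) spanned 1073 to 1469 reads in the light and 821 to 1201 in the dark, at 0.30 ± 0.11, and Angpt2, the antagonist of TIE2, gave 0.61 ± 0.24. The receptors Flt1 and Tek gave 0.02 ± 0.12 and 0.05 ± 0.12, and the ligand Vegfa, the single member below 0, gave -0.45 ± 0.30. Leaving out ZT2 replicate 1 or ZT2 replicate 2 left 1 at an unadjusted p under 0.05, with medians of 0.13 and 0.14. The median was 0.10 without ZT6 replicate 1, and 0.14 with 9 of 14 above 0 without ZT22 replicate 2. Within ZT6 and ZT18, and likewise with the index as a term, the list had 8 of 14 above 0 with a median of 0.06 and 0 at an unadjusted p under 0.05. Endothelial markers, which include Flt1 and Tek, had 9 of 11 above 0 in controls (median 0.10) and 2 of 11 in mutants (median -0.11). Over all genes these shares were 48.7% and 50.6%. Their part in the values of this list and of the basement membrane list was not tested.

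Barrier genes gave few members past an unadjusted p of 0.05. Over all genes 48.7% were above 0, and 2.07% had such a p in the light direction and 2.41% in the dark direction. Of 25 barrier transporters 15 were above 0 (median 0.07), with Slc38a5 and Slc22a8, an organic anion transporter (0.32 ± 0.12, unadjusted p = 0.019), past an unadjusted p of 0.05. Of 36 ABC transporters 13 were above 0 (median -0.09), and Abcc6 (0.39 ± 0.17) was the 1 with an unadjusted p under 0.05. The efflux pumps Abcb1a and Abcg2, picked with their values known, gave -0.03 ± 0.12 and -0.21 ± 0.18. Of 19 junction genes 10 were above 0 (median 0.03), and Cldn1, a claudin with 0 to 18 reads in the light and 3 to 80 in the dark, had -2.57 ± 0.85 (adjusted p = 0.991). Of 16 magnesium transport genes 9 were above 0 and none had an unadjusted p under 0.05. No member of these 4 lists passed adjustment in edgeR or DESeq2.

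Genes that answer to hormones, feeding and immune signals, and haemostasis genes, gave single values of interest. No member of these lists passed adjustment in edgeR or DESeq2. Over all genes 51.3% were below 0 in controls. Of 17 glucocorticoid-responsive genes 14 were below 0 (median -0.23), but 6 of 17 were once the ZT14 libraries were left out (median 0.09), and 9 of 17 without ZT14 replicate 1 alone (median -0.03). The median was -0.10 without ZT2 replicate 1, -0.15 without ZT2 replicate 2 or ZT6 replicate 1, -0.13 without ZT14 replicate 2, -0.36 without ZT22 replicate 2 and -0.40 without ZT10 replicate 2. An unadjusted p under 0.05 was reached by 2 members in the light direction (2.07% of all genes) and 2 in the dark direction (2.41% of all genes). The dark count was 0 without ZT6 replicate 1 or with sex as a term, and 1 without ZT2 replicate 2, ZT10 replicate 1, ZT14 replicate 1 or ZT22 replicate 1. The light count was 1 without ZT6 replicate 1, ZT10 replicate 1, either ZT14 library or either ZT22 library, and 0 with the index as a term. Angptl4, an inhibitor of lipoprotein lipase that fasting induces, spanned 94 to 241 reads in the light and 32 to 106 in the dark, at 1.17 ± 0.35 (adjusted p = 0.991). Lcn2, an acute-phase protein, gave 1.85 ± 0.80 (unadjusted p = 0.0321), with 284 reads in ZT10 replicate 1, 7 to 48 in the other light libraries and 6 to 22 in the dark. Its difference between genotypes was -3.56 (unadjusted p = 0.0112). Cdkn1a (p21) gave -0.65 ± 0.25 and Sgk1 -0.33 ± 0.15. Of 10 haemostasis genes 5 were below 0 (median -0.01). The 1 with an unadjusted p under 0.05 in the dark direction (2.41% of all genes) was Plat, the tissue plasminogen activator. Plat spanned 580 to 1403 reads in the light (median 1011.5) and 1037 to 2551 in the dark (median 1297.5). Its value was -0.65 ± 0.15 (edgeR adjusted p = 0.764), and in mutants -0.52 ± 0.21. Of 21 immediate early genes 16 were below 0 (median -0.14). Cyr61, at -0.83 ± 0.34, was the 1 with an unadjusted p under 0.05 in the dark direction (2.41% of all genes). Of 19 interferon and MHC class I genes 15 were above 0 (48.7% of all genes) with a median of 0.10, and 3 had an unadjusted p under 0.05 in the light direction (2.07% of all genes): H2-D1 at 0.40 ± 0.15, Psmb8 at 0.40 ± 0.17 and Ifit3 at 0.55 ± 0.23. That count was 0 without ZT10 replicate 1, the library with the most leukocyte marker reads, was 1 without ZT6 replicate 1, was 5 without ZT6 replicate 2 or ZT10 replicate 2, was 6 with sex as a term, and was 0 with the index as a term. With 1 library left out the median ran from 0.04 (ZT2 replicate 1) to 0.23 (ZT14 replicate 1). The part of leukocytes in these values was not tested.

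**Figure D5:**
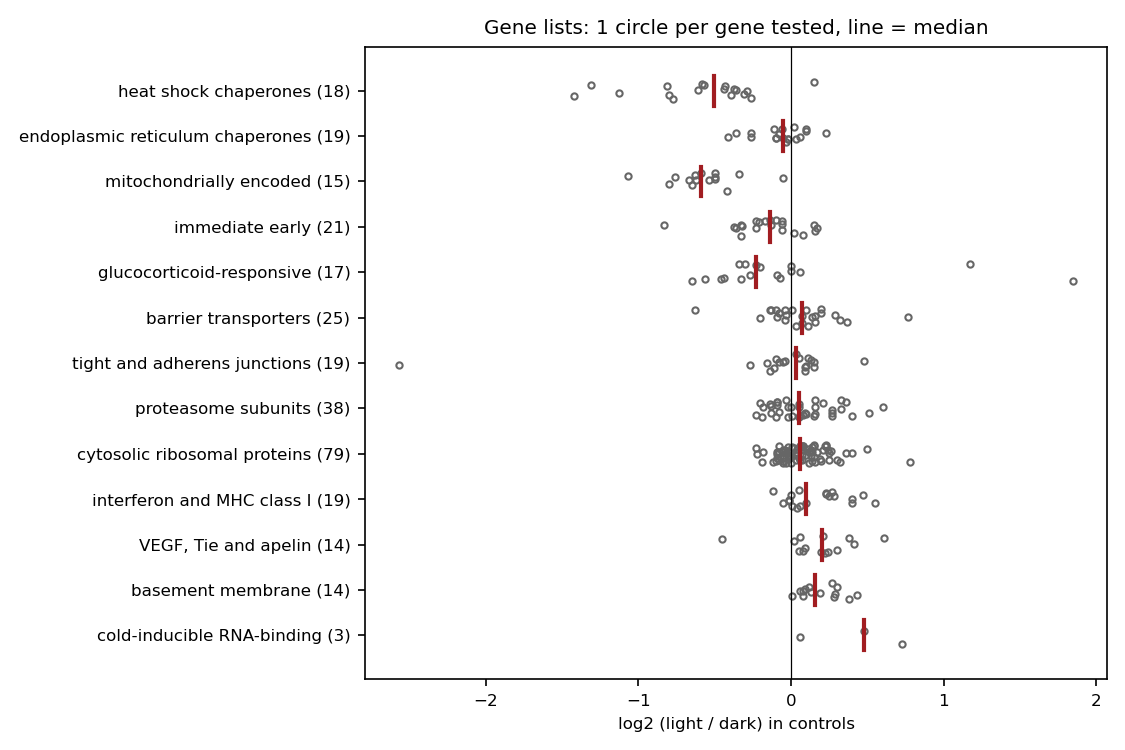
Estimated log2 ratio of light to dark in controls for the genes of 13 lists, with 1 circle a gene tested, the number tested beside the name and a red line at the median. The heat shock and mitochondrially encoded lists have medians of -0.50 and -0.59, and the basement membrane list 0.16, while the median of all genes is -0.01.

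Medians of other lists were 0.05 for 38 proteasome subunits, 0.06 for 79 cytosolic ribosomal proteins, -0.09 for 21 cholesterol synthesis genes and 0.05 for 20 aminoacyl-tRNA synthetases, and 0.04 for both the Notch and Wnt pathways. Vascular tone genes had a median of -0.20 (5 of 14 above 0) and leukocyte adhesion genes one of 0.19 (9 of 10 above 0), beside 48.7% of all genes above 0. None of either list had an unadjusted p under 0.05, and none passed adjustment in edgeR or DESeq2. Srebf2, the master regulator of cholesterol synthesis genes, spanned 582 to 824 reads in the light and 376 to 574 in the dark, with no overlap, at 0.41 ± 0.13 (adjusted p = 0.991).

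Over the whole transcriptome the mutants gave 0 genes past adjustment between the phases in edgeR (0%), 839 at an unadjusted p under 0.05 (5.42%) and 11 in DESeq2. The reads of the phases did not overlap for 9 genes in the light direction (0.0581%) and 17 in the dark direction (0.11%). The test of the difference between genotypes gave 0 in edgeR (0%), 795 at an unadjusted p under 0.05 (5.13%) and 4 in DESeq2. Of the 795, 437 had the larger value of light over dark in mutants (2.82%) and 358 the smaller (2.31%).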

How the data were processed

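RNA-seq was measured in CD31+ brain cells of 24 mice, 12 of them controls. The authors aligned reads with STAR 2.5.3a to GRCm38 and merged lanes with SAMtools 1.3.1, per the labels and the study's methods. They normalized at gene level with PORT and deposited whole-number read counts per gene, with totals brought close to each other, so the sequenced depth is no longer visible.

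Tests on the deposited counts used the quasi-likelihood method of edgeR 4.0.16 under R 4.3.3 (TMM scaling, two-sided, Benjamini-Hochberg adjustment over all genes tested), with phase and the number series of the labels (ZT6 and ZT18 against the rest) as terms. A gene was kept if 6 libraries of either genotype each held at least 5 of its reads, which left 15493 of 53465. Genotypes were compared by the interaction over 24 libraries. Errors given as ± are SE. Fold changes are of light over dark. Alternatives were DESeq2 1.42.0, other scalings, filters and terms, subsets of time points and leaving out each library. The code was tested on simulated data. P-values of the main fit measure the spread among libraries of the same phase and number series. Outside ZT6 and ZT18 that spread holds differences between time points as well as between mice. Members and lists were chosen with earlier results of these data known. Named in each direction were the 12 genes with the smallest p among those that passed, or the 5 with the smallest p where fewer than 5 passed, all clock and clock output genes but 1 that is not reported here, and from each other list up to 4 with the smallest p. Sex was read from Xist and Y-linked genes, since the labels give none. Outlying libraries were sought in each group of 6 by Dixon's ratio of gap to range. Summaries and plots were made with Python 3.11.15. Coordinates are from GENCODE M21 (GRCm38), which held 53274 of the 53465 listed genes.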

Additional observations from a re-analysis of the deposited data

Results flagged for a closer look

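In 6 libraries of 1 phase, a library was singled out where its gap to the next, as a share of the group's range, was above Dixon's 95% critical value, which chance gives for about 1 group in 20. Of 308 groups examined, 20 held such a library. ZT6 replicate 1 was the highest light library for Slc5a3 (349 reads), Hspa1a (853) and Hspa1b (602). ZT10 replicate 1 was the highest light library for blood leukocyte markers (2356 reads summed), platelet markers (462), the acute-phase gene Lcn2 (284), the selectins Selp (131) and Sele (102), and the proliferation genes Mki67 (308) and Top2a (105), and the lowest for Lsr (1174) and Icam2 (321). ZT22 replicate 2 was the highest dark library for choroid plexus markers (66863), platelet markers (264), Abca4 (821) and Ace (2949). Single values were those of Rora, lowest at ZT22 replicate 1 (447), Srsf5, highest at ZT18 replicate 2 (3578), Sele, highest in the dark at ZT18 replicate 1 (33), and Cdc20, highest in the dark at ZT14 replicate 2 (36).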

How the results depend on the processing

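The count of genes past an adjusted p of 0.05 between the phases in controls was 1. It was 0 with library totals only, without the number series, with the i5 index, and with sex (chosen after seeing the data). It was 66 with no filter beyond 1 read, where the prior degrees of freedom of the spread were infinite against 10.55 with the filter. It was 7 in DESeq2, 7 with time point as a factor, 13 within ZT6 and ZT18, 2 with all 24 libraries, and 0 to 3 when 1 library was left out (3 without ZT22 replicate 2). Also chosen after seeing the data, it was 2 without ZT10 replicate 1 and ZT22 replicate 2, and 2 without ZT14. In mutants the count of 0 became 41 with no filter, 11 in DESeq2 and 2 with time point as a factor. For the genotype difference the count of 0 became 28 with no filter, 4 in DESeq2 and 0 to 2 with 1 library left out (2 without control ZT6 replicate 1). The cause of these shifts was not tested. Same-numbered replicates correlated at -0.014 to 0.045 across 15 pairs of control time points. The mean was above 0 at 6 of 6 control time points and at 5 of 6 mutant time points. These values are near 0, but with so few mice at each time they cannot exclude that same-numbered mice shared an experiment. The paper mentions independent experiments for these mice and does not tie them to replicate numbers. Whether the numbers pair mice is thus left undecided. Since replicate number nearly coincides with sex in controls, the block and the sex term take out nearly the same difference there. With a replicate block the counts were 0, 0 and 0, and Slc5a3 had an edgeR adjusted p of 0.0545, against 0.0596 with sex. Of 141 genes followed through at most 27 alternatives, 25 had the other sign under at least 1, and 0 of these sign changes involved a call. Read depth limits genes with few reads, such as Cldn1.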
